A study of Mus musculus with 15 samples.

Results

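The mitochondrial respiratory chain is a set of protein complexes, and its subunits are encoded by 2 genomes. The genes examined here are those whose symbol matches the nuclear families Ndufa, Ndufb, Ndufc, Ndufs and Ndufv (complex I), Sdha to Sdhd (complex II), Uqcr (complex III), Cox4 to Cox8 (complex IV) and Atp5 (complex V), together with the 13 protein genes of mitochondrial DNA. Of 101 matching symbols, 97 reached an FPKM (a read fragment count scaled to transcript length and library size) of at least 1 at 1 or more timepoints, among 16902 genes that did so. They comprise 84 nuclear genes (37 in complex I, 4 in complex II, 8 in complex III, 16 in complex IV and 19 in complex V) and 13 mitochondrial genes (7 in complex I, 1 in complex III, 3 in complex IV and 2 in complex V). The 4 symbols left out were Atp5c1-ps, Cox8c and Cox7b2, which were listed at 0 at every timepoint, and Atp5l-ps2, with a maximal FPKM of 0.261. The members just inside the limit were Atp5l-ps1 with a maximal FPKM of 1.03, Cox6a2 with 2.85, Atp5s with 6.10 and Cox8b with 9.09. Some families hold genes with a different place in the chain: Ndufa4 is now counted with complex IV, Cox7a2l helps complexes join into larger assemblies, Atp5s and Atp5sl are accessory factors, and symbols ending in -ps are pseudogenes.

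Complexes I, III and IV pump protons across the inner mitochondrial membrane as electrons pass from NADH to oxygen, complex II feeds in electrons from succinate, and complex V, the ATP synthase, uses the proton gradient to make ATP. Mitochondrial DNA is copied and transcribed inside the organelle, both strands giving long transcripts that are cut into separate RNAs, whereas the nuclear subunits are made in the cytoplasm and imported. In the stomach, parietal cells, which secrete acid with a proton pump that consumes ATP, are among the cells of the body richest in mitochondria. Several nuclear subunits exist as isoforms whose use differs between tissues.

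RNA of the whole stomach of C57BL/6 mice was sequenced at 15 ages, with 1 transcriptome for each age. Following the study, the ages were grouped into 3 phases: Ph1 comprises the 6 daily embryonic samples from E12.5 to E17.5, Ph2 comprises E18.5, days D1, D3 and D5 after birth and weeks W1 and W2, and Ph3 comprises weeks W3, W6 and W8. The animals carried no engineered allele and received no treatment according to the labels, and stomachs older than W2 came from males, so that age and sex cannot be told apart in Ph3. The phases were drawn from these same transcriptomes, and the timepoints serve as the replicates of a phase (n = 6, 6 and 3), so the p-values measure the distance between phases and do not test the phases independently. Change with age inside a phase adds to its spread. In the study's replicates several embryonic stomachs were combined at the ages up to E17.5, and the number of stomachs behind each RNA sample is not given in the sources used here.

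Each sample's tissue label was checked against marker genes, since the methods of the study name another organ as the source of the RNA. The parietal cell gene Atp4b, a subunit of the gastric proton pump, went from 4.28 FPKM at E12.5 to 3404 at W8, and Alb, the albumin gene of liver, was at 461 FPKM at D1, at 65.4 at W3 and at no more than 25.8 elsewhere. Alb is 1 of 3 liver genes examined, and they did not move together. Of the 3, 2 rose from Ph1 to Ph2 and 1 from Ph2 to Ph3 (13.2% and 3.41% of all genes). In the second step their changes ran from -1.63 to 2.84. The part of liver RNA in the samples was not tested. Read depth is not stated, and relative depth, read from the confidence bounds of the faintest entries, lay between 0.702 (E16.5) and 1.17 (W6) of that at E12.5. A second scale, median-ratio scaling, is given beside counts of genes, because the 10 highest genes took between 11.2% and 53.2% of a sample's summed FPKM. With FPKM as deposited, the median of all genes moved by -0.22 from Ph1 to Ph2 and by -0.43 from Ph2 to Ph3 on the log2(FPKM + 1) scale, and with median-ratio scaling by 0.01 and -0.02.

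The reading of the mitochondrial genes depends on their layout. They lie end to end on the circular DNA (chromosome MT, GRCm38), and several overlap: ATP8 and ATP6 share 43 bases, ND4L and ND4 share 7, ATP6 and COX3 share 1, and ND5 and ND6 share 14 on opposite strands. ATP8, a small subunit of the ATP synthase, is shown because it had the highest level of all members and is the shortest. It spans MT:7766-7969 on the plus strand, 204 bases, and the sequence below is that of its GENCODE transcript, with the bases that also belong to ATP6 in capitals.
ATP8: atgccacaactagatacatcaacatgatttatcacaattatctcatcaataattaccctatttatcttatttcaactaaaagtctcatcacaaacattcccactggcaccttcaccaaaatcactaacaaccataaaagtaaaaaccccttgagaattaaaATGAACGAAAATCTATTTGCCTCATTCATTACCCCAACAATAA
The shared bases make up 21.1% of ATP8. How fragments from such a short and overlapping gene were assigned is not given in the sources used here, so the level of ATP8 is uncertain relative to the other genes.

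The promoters of 5 nuclear members are shown because these genes form 2 isoform families whose members took different courses. Cox7a1 and Cox7a2 encode alternative forms of a small subunit of complex IV, the first known from heart and skeletal muscle and the second from liver and most other tissues. Atp5g1, Atp5g2 and Atp5g3 encode the same mature protein, subunit c of the ATP synthase ring, with different import sequences. Each line gives the 300 bases from 250 before to 50 after the start of the gene in RefSeq (GRCm38.p6), read 5′ to 3′ on the gene's strand. Capitals mark any match, on either strand, to 7 motifs: the NRF1 core, ERR (TCAAGGTCA), ETS (CGGAAG), YY1 (AAGATGGC), Sp1 (GGGCGG), the CCAAT box (CCAAT) and the E box (CACGTG).
Cox7a1, chr7:30183921-30184220, plus strand: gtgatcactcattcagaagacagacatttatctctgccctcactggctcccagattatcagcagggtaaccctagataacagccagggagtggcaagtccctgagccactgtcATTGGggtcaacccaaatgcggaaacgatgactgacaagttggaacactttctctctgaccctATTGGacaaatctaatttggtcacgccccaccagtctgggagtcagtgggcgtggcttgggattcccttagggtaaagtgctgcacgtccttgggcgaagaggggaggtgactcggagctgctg
Cox7a2, chr9:79759804-79760103, minus strand: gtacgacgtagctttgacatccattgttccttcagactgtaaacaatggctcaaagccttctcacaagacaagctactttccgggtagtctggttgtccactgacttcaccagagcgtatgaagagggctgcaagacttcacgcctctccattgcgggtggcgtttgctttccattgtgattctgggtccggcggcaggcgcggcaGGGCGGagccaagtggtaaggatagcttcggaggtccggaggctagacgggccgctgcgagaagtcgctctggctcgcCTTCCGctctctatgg
Atp5g1, chr11:96075582-96075881, minus strand: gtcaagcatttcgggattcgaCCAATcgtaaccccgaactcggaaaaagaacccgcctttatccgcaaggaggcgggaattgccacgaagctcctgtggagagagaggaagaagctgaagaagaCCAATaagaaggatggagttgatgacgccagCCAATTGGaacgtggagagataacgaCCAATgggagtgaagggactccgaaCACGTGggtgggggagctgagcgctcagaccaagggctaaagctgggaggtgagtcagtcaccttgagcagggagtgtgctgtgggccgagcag
Atp5g2, chr15:102670998-102671297, minus strand: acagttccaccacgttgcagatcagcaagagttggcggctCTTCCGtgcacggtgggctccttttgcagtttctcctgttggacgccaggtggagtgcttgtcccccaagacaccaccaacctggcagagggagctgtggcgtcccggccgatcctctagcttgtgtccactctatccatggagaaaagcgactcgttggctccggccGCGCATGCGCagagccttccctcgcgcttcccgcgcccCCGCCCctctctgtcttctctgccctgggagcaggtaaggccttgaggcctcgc
Atp5g3, chr2:73911277-73911576, minus strand: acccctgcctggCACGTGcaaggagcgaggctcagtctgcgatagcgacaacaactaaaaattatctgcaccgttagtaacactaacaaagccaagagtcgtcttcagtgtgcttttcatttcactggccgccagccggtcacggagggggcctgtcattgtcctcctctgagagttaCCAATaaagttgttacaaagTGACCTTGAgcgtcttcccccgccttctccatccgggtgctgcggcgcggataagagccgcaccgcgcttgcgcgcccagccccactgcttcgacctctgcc
The Cox7a1 window held only CCAAT boxes, and the Cox7a2 window held an ETS and an Sp1 match. The Atp5g1 window held several CCAAT boxes and an E box, the Atp5g2 window an NRF1, an ETS and an Sp1 match, and the Atp5g3 window an ERR match, a CCAAT box and an E box.

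Over all nuclear members, 68 of 84 were matched to a promoter, in 74 windows. The NRF1 letters, read by nuclear respiratory factor 1, were in 6.76% of these windows and in 0.971% of all 32851 windows of the same length, and the genes were Atp5g2, Atp5k, Cox6a1, Ndufa11 and Uqcrc1. The YY1 letters were in 16.2% of member windows and 2.75% of all windows, and the ETS letters in 37.8% and 16.9%. The ERR letters, of the estrogen-related receptors, were in 2.70% and 0.423%, in Atp5g3 and Sdhd. Shares were closer for Sp1 (37.8% and 35.7%), the CCAAT box (41.9% and 37.4%) and the E box (12.2% and 7.15%). These matches describe letters in a fixed window, and the median GC content was 57.5% in the member windows and 52.7% in all.

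With FPKM as deposited and with median-ratio scaling, respiratory chain genes of both genomes stood higher after weaning than in the fetal stomach. On both scales the median change was above 0 for every complex in both steps between phases. With quantile normalization, described below, this did not hold for the mitochondrial genes of complexes IV and V. There COX2 changed by -0.21 and -0.63, COX3 by -0.08 and -0.42, and ATP8 by -0.42 and -0.93. COX1 changed by 0.22 and -0.12, and ATP6 by 0.37 and -0.31. The mean level of the 84 nuclear genes, on the log2(FPKM + 1) scale, was 7.19 at E12.5, 7.74 at E17.5, 7.48 at D5, 7.88 at W2 and 8.17 at W3, and then 8.08 at W6 and 7.80 at W8. Of the nuclear genes, 42 had their highest FPKM at W3, 29 at W6 and 3 at W8. The mean level of the 13 mitochondrial genes was 11.85 at E12.5, 12.14 at E17.5, 12.48 at W2, 12.47 at W3, 13.43 at W6 and 13.14 at W8, and 11 of them were highest at W6 and 2 at W8. By this mean of deposited values, the nuclear genes thus stood highest at W3 and the mitochondrial genes at the later ages. The summed FPKM of the nuclear genes was 48103 at W3 and 48559 at W6. Median-ratio scaling divides by 0.763 at W3, 0.577 at W6 and 0.671 at W8, so the order of these ages depends on the scale.

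**Figure D1:**
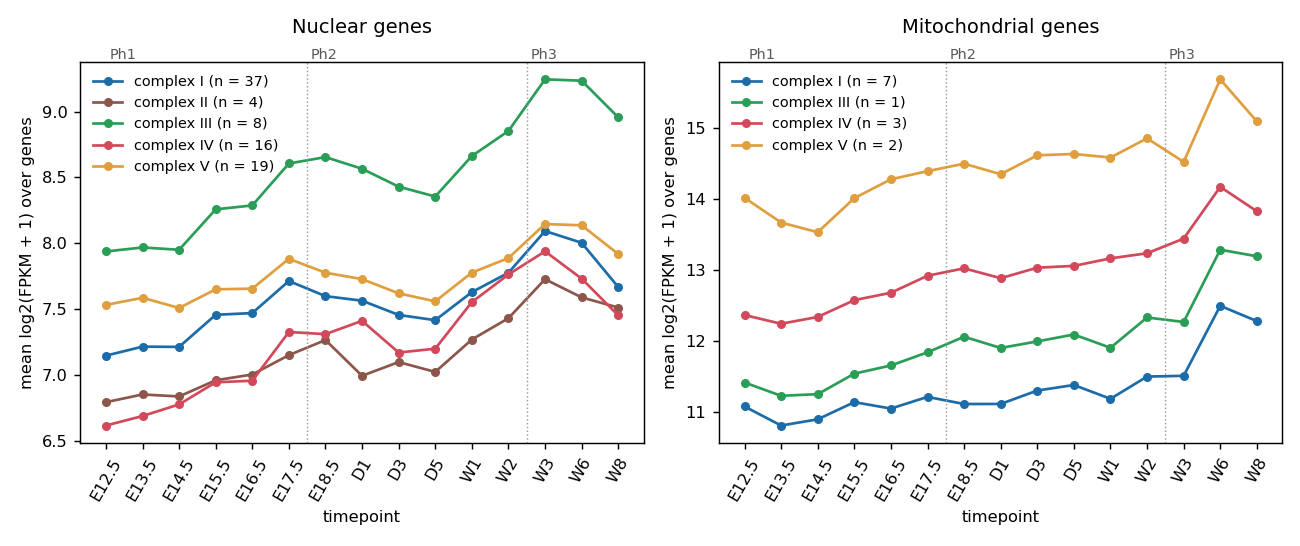
Mean log2(FPKM + 1) of the members of each complex at the 15 timepoints, for nuclear genes and for mitochondrial genes, with the phases marked. The nuclear means of the 5 complexes stand highest at W3 or close to it, whereas the mitochondrial means step up between W3 and W6.

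Across the 3 phases, 61 of 84 nuclear and 12 of 13 mitochondrial members differed at an adjusted p under 0.01 by the limma F test, where 70.8% of all genes tested did. From Ph1 to Ph2, 19 nuclear and 4 mitochondrial members rose and none fell, against 13.2% of all genes higher and 35.1% lower. The median change was 0.19 over the nuclear members and 0.42 over the mitochondrial members, beside -0.22 for all genes. From Ph2 to Ph3, 39 nuclear and 10 mitochondrial members rose and 2 nuclear members fell, against 3.41% of all genes higher and 37.4% lower. The median change was 0.44 for nuclear and 0.79 for mitochondrial members, beside -0.43 for all genes.

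With median-ratio scaling, 48 nuclear and 7 mitochondrial members rose from Ph1 to Ph2 and none fell, against 20.4% of all genes higher and 18.4% lower. From Ph2 to Ph3, 75 nuclear and 12 mitochondrial members rose and 1 nuclear member, Cox6b2, fell, against 14.9% higher and 10.4% lower. On the deposited scale, all Ph3 values lay above all Ph2 values for 48 nuclear and 6 mitochondrial members (4.63% of all genes) and below them for Cox4i2, Cox6b2 and Ndufa4l2 (44.7% of all genes). All Ph2 values lay above all Ph1 values for 7 members (7.79% of all genes), which were the nuclear genes Cox7a1, Ndufa1 and Ndufb9 and the mitochondrial genes ATP6, COX1, CYTB and ND4, and below them for Cox6b2 alone (21.9%). The counts of the second step depend on single ages. Of the nuclear members, 13 rose from Ph2 to Ph3 without W3, 9 without W6 and 24 without D3, in place of 39, and of the mitochondrial members 2 rose without W6 and 6 without W8, in place of 10. Of the mitochondrial members that rose from Ph1 to Ph2, 2 remained in number without E12.5, E13.5, E14.5 or W2, and there were 7 without W3, in place of 4. Leaving out an age also leaves fewer values in a phase. The share of all genes that rose in these refits is not given here, so fewer calls among the members cannot be told from fewer calls among all genes. Of 29 individually examined members that rose or fell from Ph2 to Ph3, 6 passed the test whichever age was left out: the mitochondrial COX1 and ND2 and the nuclear Cox6b2, Cox7a1, Sdhb and Uqcrfs1. Without W6, 22 of the 29 did not pass it. Of 17 that rose from Ph1 to Ph2, 13 passed it whichever age was left out. In whole tissue, fewer cells of a type and less RNA in each cell cannot be told apart.

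Markers of several cell types moved with the phases too. The summed FPKM of 12 parietal cell genes was 34.0 to 695 in Ph1, 1388 to 3642 in Ph2 and 5535, 6869 and 8496 at W3, W6 and W8. Of these genes, 10 rose from Ph1 to Ph2 and 2 from Ph2 to Ph3, none fell, and 1 (Hrh2) was listed at 0 at E12.5 only. With median-ratio scaling 10 and 7 rose. Of 3 chief cell genes tested, 3 rose in the first step and 1 in the second, and of 4 surface mucous cell genes 3 rose in each step. Of all genes, 13.2% rose in the first step and 3.41% in the second. The sum of 5 smooth muscle genes was 1111 to 4609 in Ph1, 3236 to 8373 in Ph2 and 6002, 2012 and 1554 in Ph3. That of 8 erythroid genes was 9225 to 12680.5 in Ph1 and 474.97 to 1111 in Ph3. The part of these changes of cell make-up in the results was not tested.

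Complex I, the NADH dehydrogenase, takes electrons from NADH. Of its 37 nuclear members, 5 rose from Ph1 to Ph2 (Ndufa1, Ndufa11, Ndufb9, Ndufs7 and Ndufv1) and 17 from Ph2 to Ph3, none fell, and the median changes were 0.18 and 0.43. The first count was close to the share of all genes that rose (13.2%), and the second stood against 3.41%. With median-ratio scaling the counts were 19 and 35, against 20.4% and 14.9% of all genes. Its 7 core subunits of nuclear origin, which carry the flavin and the iron-sulfur clusters, changed from Ph1 to Ph3 by a median of 0.62, and the 30 other nuclear members by 0.64, close to each other. Levels ranged widely among the nuclear genes grouped here by symbol. Mean FPKM in Ph3 went from 1043 for Ndufa3 down to 44.8 for Ndufa11. Outside this range were Ndufa4, now counted with complex IV, at 1062, and its relative Ndufa4l2 at 5.97.

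Among the nuclear genes of complex I, Ndufb9 had the largest step from Ph1 to Ph2. It lay between 190.1 and 290.4 FPKM in Ph1 (median 213), between 296 and 456 in Ph2 (median 324) and at 589, 552 and 474 at W3, W6 and W8. Each phase thus lay wholly above the one before it, by 0.62 (SE 0.13, limma adjusted p = 0.000947) and 0.64 (SE 0.16, adjusted p = 0.00374). Ndufa1, a small membrane subunit whose gene is on the X chromosome, had the largest rise among them from Ph2 to Ph3. Its values were 99.8 to 164 in Ph1 (median 144), 179 to 281 in Ph2 (median 193) and 355, 426 and 292 in Ph3, with steps of 0.58 (SE 0.15, adjusted p = 0.00352) and 0.78 (SE 0.18, adjusted p = 0.00244). Here too no phase overlapped the next. Without W6 the second steps were 0.62 (adjusted p = 0.0205) for Ndufb9 and 0.65 (adjusted p = 0.0233) for Ndufa1, and neither passed the test. Nor did that of Ndufb9 without W3 (0.57, adjusted p = 0.0182).

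Not all complex I genes followed. Ndufc2, a membrane arm subunit, was at 195 to 240.4 FPKM in Ph1, 166 to 212 in Ph2 and 223, 165 and 128 in Ph3, so that the phases overlapped and W8 was the lowest value. Its changes of -0.14 (SE 0.12, adjusted p = 0.326) and -0.19 (SE 0.15, adjusted p = 0.28) did not pass the test, and with median-ratio scaling both had the opposite sign, 0.15 and 0.41. Ndufs1 and Ndufv1 are core genes. Ndufs1 changed by 0.07 (adjusted p = 0.5) and rose by 0.39 (adjusted p = 0.007), whereas Ndufv1 rose by 0.40 (adjusted p = 0.00223) and changed by 0.36 (adjusted p = 0.0161). With median-ratio scaling both genes rose in both steps. On the deposited scale the rise of Ndufs1 did not pass the test without W3 (0.37, adjusted p = 0.0236) or W8 (0.34, adjusted p = 0.0352). Nor did it pass without D1, D3, D5 or W1.

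Complex II, succinate dehydrogenase, has no mitochondrial gene and is also an enzyme of the citric acid cycle. Sdha encodes the flavoprotein, Sdhb the iron-sulfur subunit, and Sdhc and Sdhd the membrane anchors. Sdhb was at 138 to 172 FPKM in Ph1, 140.1 to 199 in Ph2 and 288, 272 and 236 in Ph3, so that the first phases overlapped and Ph3 lay above both. It changed by 0.11 (SE 0.10, adjusted p = 0.367) and then rose by 0.69 (SE 0.13, adjusted p = 0.000542; exact two-sided permutation p = 0.0119, the smallest that 6 against 3 timepoints allow).

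The other complex II genes also had positive changes in both steps. Sdhc changed by 0.18 (adjusted p = 0.116) and rose by 0.52 (adjusted p = 0.0025), with Ph3 values of 222, 206 and 187 above all Ph2 values of 126 to 166, but the rise did not pass the test without W3 (0.46, adjusted p = 0.0128) or without W6 (0.51, adjusted p = 0.0135). Sdhd rose by 0.52 from Ph1 to Ph2 (adjusted p = 0.0031), from 101 to 154 FPKM to 140.2 to 209, and then changed by 0.24 (adjusted p = 0.206) to 229, 199.8 and 189. Sdha was the lowest and the steadiest of the complex, with 90.3 to 96.6 FPKM in Ph1, 89.7 to 125 in Ph2 and 135, 120.3 and 130.3 in Ph3, and neither step passed the test (0.18, adjusted p = 0.0642, and 0.27, adjusted p = 0.0285). With median-ratio scaling Sdha, Sdhc and Sdhd rose in both steps and Sdhb in the second.

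Complex III passes electrons from ubiquinol to cytochrome c. All 8 of its nuclear members differed across the phases, where 70.8% of all genes did. From Ph1 to Ph2, 4 rose (Uqcr11, Uqcrb, Uqcrfs1 and Uqcrq), and the same 4 genes rose from Ph2 to Ph3. Of all genes, 13.2% rose in the first step and 3.41% in the second. With median-ratio scaling 7 rose in the first step and all 8 in the second, against 20.4% and 14.9% of all genes. Uqcrq, a small subunit that sits beside cytochrome b, had the largest steps. It was at 332 to 655 FPKM in Ph1 (median 421), 643 to 1021 in Ph2 (median 685) and 1408, 1508 and 1125 in Ph3, and the phases overlapped only slightly between Ph1 and Ph2. The steps were 0.78 (SE 0.17, adjusted p = 0.00152) and 0.84 (SE 0.21, adjusted p = 0.00419), and the second did not pass the test without W3 (0.80, adjusted p = 0.016) or without W6 (0.75, adjusted p = 0.0294).

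Uqcrfs1 encodes the Rieske iron-sulfur protein of complex III. It was at 104 to 136 FPKM in Ph1, 134 to 183 in Ph2 and 262, 251 and 253 in Ph3, the last 3 values lying close together and above all others. It rose by 0.38 (SE 0.10, adjusted p = 0.00357) and 0.74 (SE 0.12, adjusted p = 0.00029). The core proteins Uqcrc1 and Uqcrc2, which face the matrix, had smaller steps that did not pass the test: 0.30 (adjusted p = 0.0261) and 0.32 (adjusted p = 0.0481) for Uqcrc1, and 0.13 (adjusted p = 0.293) and 0.42 (adjusted p = 0.0109) for Uqcrc2.

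Complex IV, cytochrome c oxidase, reduces oxygen. Of its 16 nuclear members, 8 rose from Ph1 to Ph2 (Cox4i1, Cox5a, Cox5b, Cox6a1, Cox6c, Cox7a1, Cox7b and Cox8b) and none fell. From Ph2 to Ph3, 10 rose and 2, Cox4i2 and Cox6b2, fell. Of all genes, 13.2% rose and 35.1% fell in the first step, and 3.41% rose and 37.4% fell in the second. With median-ratio scaling 11 rose in each step, against 20.4% and 14.9% of all genes, and Cox6b2 fell in the second. Cox6a1, the general isoform of subunit 6a, was the highest nuclear member in Ph3 and stood at 663 to 1452 FPKM in Ph1 (median 842), 1397 to 1895 in Ph2 (median 1517) and 2886, 2970.2 and 2322 in Ph3. It rose by 0.83 (SE 0.18, adjusted p = 0.00113) and 0.78 (SE 0.22, adjusted p = 0.0071). Cox5a, a subunit on the matrix side that was picked out here after its values had been seen, was at 175 to 319, 262 to 432 and 639.7, 691 and 554 FPKM, and rose by 0.53 (SE 0.15, adjusted p = 0.00709) and 0.99 (SE 0.18, adjusted p = 0.000633). For both genes the first phases overlapped at E17.5 and Ph3 lay above all earlier values. The second rise of Cox6a1 did not pass the test without W6 (0.71, adjusted p = 0.04) or without any of 6 other ages.

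Complex V is the ATP synthase. Of its 19 nuclear members, 1 rose from Ph1 to Ph2 (Atp5g1) and 6 from Ph2 to Ph3 (Atp5b, Atp5g3, Atp5h, Atp5j2, Atp5k and the pseudogene Atp5l2-ps), none fell, and the median changes were 0.10 and 0.40, beside 13.2% and 3.41% of all genes that rose. Across the phases 12 of the 19 differed, where 70.8% of all genes did. With median-ratio scaling 8 rose in the first step and 17 in the second, against 20.4% and 14.9% of all genes. Atp5k, the small subunit e where ATP synthases pair, had the highest mean of the nuclear members of this complex in each phase. It was at 985 to 1504 FPKM in Ph1, 1056 to 1547 in Ph2 and 2058, 2865 and 1868 in Ph3, with a step of 0.14 (SE 0.13, adjusted p = 0.38) and a rise of 0.80 (SE 0.16, adjusted p = 0.00107) that did not pass the test without W6 (0.61, adjusted p = 0.0117).

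The catalytic subunits of the ATP synthase had small steps. Atp5b, the beta subunit that carries the catalytic sites, was at 632 to 834 FPKM in Ph1, 681 to 899.5 in Ph2 and 1136, 1015 and 1020.0 in Ph3, and rose in the second step by 0.40 (SE 0.11, adjusted p = 0.00762) after a change of 0.16 (SE 0.09, adjusted p = 0.134). This rise was near the threshold and missed it when any of 9 ages was left out, with 0.35 (adjusted p = 0.0335) without W3. Atp5a1, the alpha subunit, changed by 0.05 (adjusted p = 0.577) and 0.19 (adjusted p = 0.115). The accessory gene Atp5s was at 5.15 to 6.10 FPKM in Ph1, 4.05 to 5.59 in Ph2 and 3.56, 3.41 and 4.36 in Ph3. Its changes, -0.23 (adjusted p = 0.0269) and -0.27 (adjusted p = 0.036), did not pass the test. Atp5l-ps1, a pseudogene at the limit of detection, was listed at 0 from D1 on and changed by -0.42 (adjusted p = 0.0214) in the first step.

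**Figure D2:**
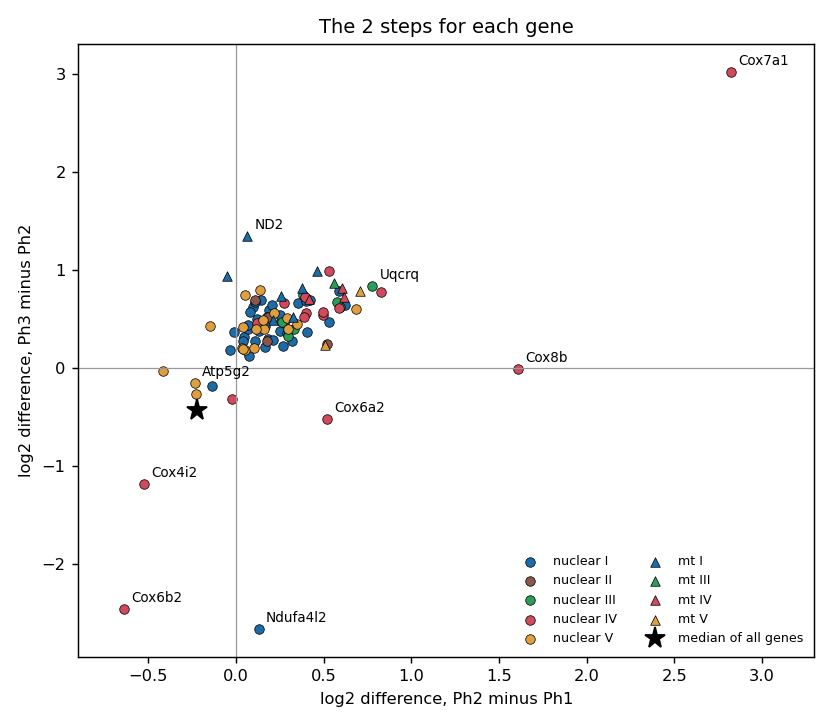
Change of each member from Ph1 to Ph2 (horizontal) and from Ph2 to Ph3 (vertical), as differences of mean log2(FPKM + 1), coloured by complex and with mitochondrial genes marked apart. Most points lie above 0 on both axes, Cox7a1 stands far out with 2.82 and 3.02, and Ndufa4l2 and Cox6b2 lie lowest on the vertical axis.

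To compare the complexes with each other, each gene was also taken relative to the mean log2 level of the 84 nuclear members in the same sample, a comparison added after the data had been seen. On this scale the complex III nuclear mean stood 0.78 above the mean of all nuclear members in Ph1 (SD 0.07, n = 6), 0.94 in Ph2 (SD 0.04, n = 6) and 1.13 in Ph3 (SD 0.05, n = 3). The complex V nuclear mean stood 0.24 (SD 0.08) above it in Ph1, 0.07 (SD 0.04) in Ph2 and 0.05 (SD 0.07) in Ph3. Complex I moved from -0.02 (SD 0.02) to -0.08 (SD 0.02) and -0.09 (SD 0.03). Complex IV moved from -0.51 (SD 0.06) to -0.25 (SD 0.09) and -0.31 (SD 0.07), and complex II stayed between -0.41 and -0.47. Single members with large changes weigh on these means. In complex IV, Cox7a1 changed by 2.56 in the first step, and Cox6b2 by -2.83 and Cox4i2 by -1.55 in the second. The median change of its 16 members was 0.19 in each step, with 11 above 0 and 5 below in the second. For complexes I and V the median change in the second step was 0.07 and 0.04. These means and medians were not tested.

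Gene by gene on this relative scale, 8 nuclear members rose and 5 fell from Ph1 to Ph2, against 7.78% of all genes higher and 42.2% lower. The 8 were Atp5g1, Cox6a1, Cox7a1, Cox7b, Cox8b, Ndufb9, Uqcr11 and Uqcrq, and the 5 were Atp5e, Atp5g2, Atp5l-ps1, Cox4i2 and Ndufc2. From Ph2 to Ph3, 3 rose (Cox5a, Cox7a1 and Uqcrq) and 7 fell (Atp5g2, Atp5s, Cox4i2, Cox6b2, Cox7a2l, Ndufa4l2 and Ndufc2), against 1.22% higher and 57.2% lower. Across the phases 26 of 84 nuclear members differed on this scale, where 80.5% of all genes did. The reference is the mean of these same members, which centres them and moves other genes down as the members rise. The scale thus compares members with each other, and these shares are no comparison of the members with all genes.

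The spread among the members was wide at the extremes and narrow in the middle. From E12.5 to W3, the quartiles of the change in log2(FPKM + 1) over the 84 nuclear members were 0.67 and 1.32 with a median of 0.98, where the median of all genes was -0.53. The medians by complex were 0.96 for complex I, 1.02 for complex II, 1.25 for complex III, 1.403 for complex IV and 0.69 for complex V. The lowest change was -1.99 for Cox6b2 and the highest 6.88 for Cox7a1. Each of these timepoints is 1 transcriptome, so the changes between them have no replicate error.

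**Figure D3:**
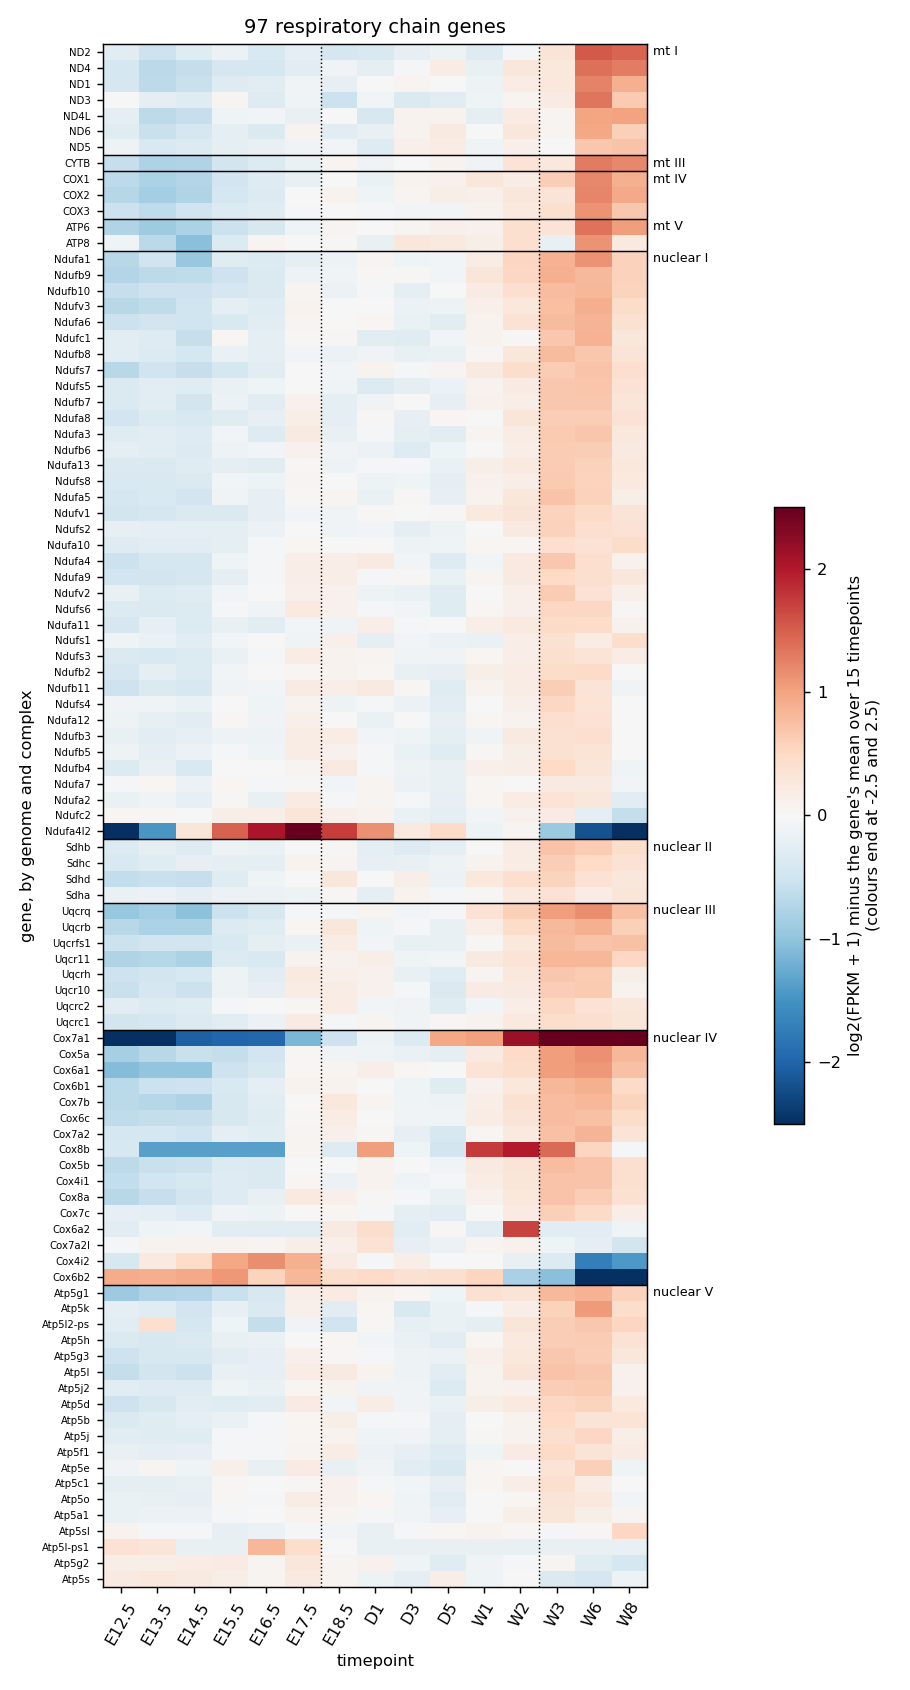
Members (vertical) at the 15 timepoints (horizontal), each as log2(FPKM + 1) minus its own mean over the timepoints, ordered by complex and genome. Most members are above their mean at W3, W6 and W8, and Ndufa4l2, Cox4i2 and Cox6b2 are above theirs from E14.5 to E18.5 and below it at W3, W6 and W8.

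The levels of the mitochondrial genes were compared with those of the nuclear genes within each sample, which does not depend on the scale of the sample. The difference between the mean log2(FPKM + 1) of the 13 mitochondrial genes and that of the 84 nuclear genes was 4.36 to 4.66 in Ph1 and 4.44 to 4.84 in Ph2. It was 4.31 at W3, the lowest of all 15 values, and 5.35 and 5.34 at W6 and W8, the highest. The phase means were 4.47 (SD 0.11, n = 6), 4.60 (SD 0.16, n = 6) and 4.999 (SD 0.60, n = 3), so that the step from Ph2 to Ph3 of 0.40 was close to the pooled SD within phases of 0.36.

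The step lay inside Ph3. From W2 to W3, 75 nuclear members were higher and 8 lower, with a median change of 0.37, while 6 mitochondrial members were higher and 7 lower, with a median of -0.01 (median of all genes -0.23). From W3 to W6, all 13 mitochondrial members were higher, with a median of 0.97 and a range of 0.58 to 1.31, while 30 nuclear members were higher and 52 lower, with a median of -0.04 (median of all genes -0.26). From W3 to W8, all 13 mitochondrial members were again higher, with a median of 0.63, while 6 nuclear members were higher and 77 lower, with a median of -0.32. Each age is 1 transcriptome, so neither step has a replicate check. W6 and W8 were also among the 3 deepest libraries, at 1.17 and 1.11 of the depth at E12.5, and the part of depth in the step was not tested.

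The shift was seen in each complex that has genes in both genomes. From W3 to W6, the difference between mitochondrial and nuclear means went from 3.41 to 4.49 in complex I, from 3.02 to 4.05 in complex III, from 5.50 to 6.44 in complex IV and from 6.37 to 7.55 in complex V. As a share of all summed FPKM, the 13 mitochondrial genes took 9.52% at E14.5, 14.3% at E16.5 and 16.8% at D5. They took 12.6% at W3, 20.8% at W6 and 17.1% at W8, so that W3 lay below E16.5 and D5. The 84 nuclear members took 2.93% at E12.5, 3.67% at E17.5, 4.61% at W3, 3.61% at W6 and 3.39% at W8. By this share, the nuclear members thus stood lower at W6 and W8 than at E17.5. The step of the difference from Ph2 to Ph3, 0.40 with all ages, was 0.75 without W3, 0.23 without W6, 0.23 without W8 and -0.29 without both W6 and W8. Computed from summed FPKM it was -0.02, and from summed FPKM without ATP8, the mitochondrial gene with the highest FPKM, 0.26, so its sign depends on how the genes are summed and on these 2 ages.

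**Figure D4:**
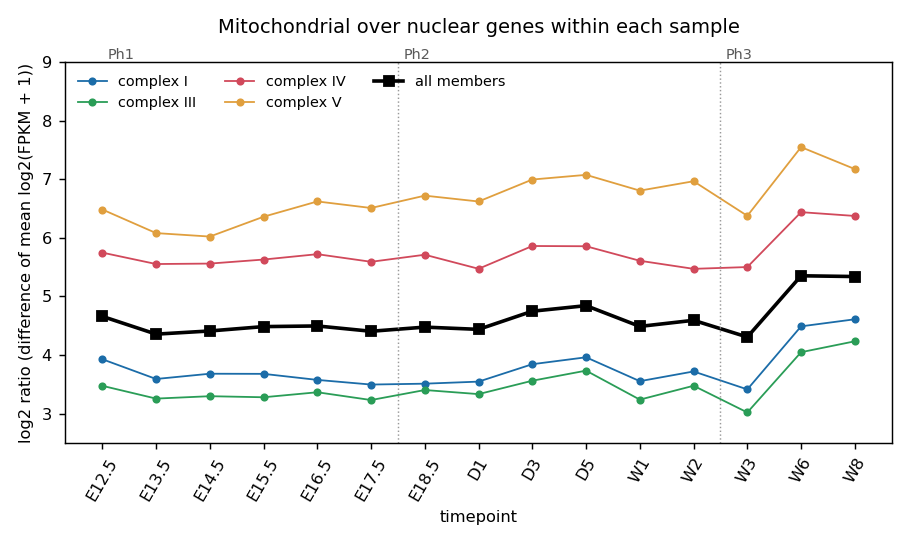
Mean log2(FPKM + 1) of the mitochondrial members minus that of the nuclear members at each timepoint, over all complexes and for complexes I, III, IV and V. The difference over all complexes is lowest at W3 (4.31) and highest at W6 (5.35) and W8 (5.34).

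The mitochondrial genes of complex I encode the membrane subunits through which protons are moved. ND2 had the largest step from Ph2 to Ph3: it was at 976 to 1271 FPKM in Ph1 (median 1144), 1043 to 1379 in Ph2 (median 1167) and 1741, 4062 and 3839.7 at W3, W6 and W8. The first phases overlapped over nearly their whole range, and Ph3 lay above both. The changes were 0.06 (SE 0.17, adjusted p = 0.758) and 1.35 (SE 0.21, adjusted p = 0.000232). ND2 was also the one mitochondrial gene that rose relative to the nuclear members in this step (0.98, adjusted p = 0.00342).

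The other ND genes had smaller steps. ND1, ND3, ND4 and ND4L rose by 0.81 (adjusted p = 0.00168), 0.94 (adjusted p = 0.00142), 0.98 (adjusted p = 0.00113) and 0.73 (adjusted p = 0.00881), and none of these 4 passed the test without W6. The rise of ND4L also missed the threshold without any of 11 other ages. ND5 and ND6 changed by 0.48 (adjusted p = 0.015) and 0.52 (adjusted p = 0.0263), which did not pass the test. ND6, the one member read from the other strand, was at 1525 to 2402 FPKM in Ph1, 1878 to 2741 in Ph2 and 2375, 4371 and 3411 in Ph3, so that W3 lay within Ph2. No ND gene passed the test from Ph1 to Ph2.

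In complexes III, IV and V the mitochondrial genes rose in both steps, except COX3 and ATP8. COX1, the catalytic subunit of cytochrome c oxidase, was at 3978 to 6063 FPKM in Ph1 (median 4668), 6128 to 8388 in Ph2 (median 7404) and 10576, 15789 and 12753 in Ph3. No phase overlapped the next, and the steps were 0.61 (SE 0.13, adjusted p = 0.00102) and 0.82 (SE 0.16, adjusted p = 0.000721). COX2, which takes up electrons from cytochrome c, rose by 0.62 (adjusted p = 0.0042) and 0.72 (adjusted p = 0.0063). COX3 changed by 0.42 (adjusted p = 0.0101), just outside the threshold, and rose by 0.70 (adjusted p = 0.00179). Without W6 the second steps were 0.53 (adjusted p = 0.0574) for COX2 and 0.51 (adjusted p = 0.0182) for COX3. That of COX2 also missed the threshold without W8 (0.67, adjusted p = 0.029), E18.5, D1, D3, D5 or W1. The first rise of COX2 did not pass the test without E12.5, E13.5 (0.55, adjusted p = 0.0119), E14.5 or W2.

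CYTB, cytochrome b of complex III, was at 2390.4 to 3658 FPKM in Ph1, 3815 to 5141 in Ph2 and 4919.6, 9967 and 9349 in Ph3. Ph2 lay above Ph1, and W3 lay within Ph2. It rose by 0.56 (SE 0.16, adjusted p = 0.00842) and 0.87 (SE 0.20, adjusted p = 0.00237). ATP6, the proton channel subunit of the ATP synthase, was at 3998 to 6829, 7332 to 9701 and 9337, 18882 and 15175 FPKM, with W3 again within Ph2, and rose by 0.71 (SE 0.16, adjusted p = 0.00205) and 0.79 (SE 0.20, adjusted p = 0.00451). Without W6 the second steps were 0.68 (adjusted p = 0.0244) for CYTB and 0.57 (adjusted p = 0.0446) for ATP6. Without W8 they were 0.73 (adjusted p = 0.0174) and 0.72 (adjusted p = 0.0228), so that neither passed the test without W6 or W8. The first step of CYTB did not pass the test when any of 10 ages was left out.

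ATP8, whose sequence is given above, was at 33019 to 70721 FPKM in Ph1, 59248 to 90292 in Ph2 and 59199.6, 146938 and 80373 in Ph3. All 3 phases overlapped, and W6 alone stood above the rest. Its changes of 0.51 (SE 0.22, adjusted p = 0.059) and 0.24 (SE 0.27, adjusted p = 0.469) did not pass the test. From W3 to W6 the FPKM of the mitochondrial genes increased between 1.49-fold (COX1) and 2.48-fold (ATP8) in these single transcriptomes, with 2.33-fold for ND2, 2.02-fold for ATP6 and 2.03-fold for CYTB. With quantile normalization, which sets the highest genes of each sample to common values, ATP8, COX1, COX2, COX3, ATP6 and ND4L changed from Ph2 to Ph3 with a negative sign (-0.93, -0.12, -0.63, -0.42, -0.31 and -0.27), and none of these passed the test.

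Isoform families gave the largest changes of single members. Cox7a1 was at 3.19 FPKM at E12.5, 21.8 at E17.5, 34.1 at E18.5, 97.9 at D5 and 224 at W2, and at 492.7, 695 and 594 at W3, W6 and W8. Its phases did not overlap, with medians of 11.4 in Ph1 and 71.4 in Ph2. It rose by 2.82 (SE 0.46, adjusted p = 0.000219) and 3.02 (SE 0.57, adjusted p = 0.000675), and the exact two-sided permutation p-values, 0.00216 and 0.0119, were the smallest that these group sizes allow. The authors' confidence bounds, which cover a single library, were 0.779 to 5.605 at E12.5.

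Cox7a2, its counterpart, was at 166 to 246 FPKM in Ph1, 178 to 279 in Ph2 and 394, 428 and 297 in Ph3. It changed by 0.27 (SE 0.13, adjusted p = 0.0844) and rose by 0.66 (SE 0.16, adjusted p = 0.00364), a rise that did not pass the test without W3 or without W6. The share of Cox7a1 in the summed FPKM of the pair was 1.81% at E12.5, 8.13% at E17.5, 44.5% at W2, 55.6% at W3 and 66.7% at W8. Cox7a1 was thus the lower of the pair up to W2 and the higher from W3 on. Cox7a2l, the related assembly factor, changed by -0.02 (adjusted p = 0.844) and -0.32 (adjusted p = 0.0358), and with median-ratio scaling by 0.27 and 0.28.

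Since Cox7a1 is known as a muscle isoform, muscle markers are given beside it. In the first step, in which Cox7a1 rose by 2.82, muscle genes rose as well. The sum of 7 skeletal muscle genes was 6.46 to 52.8 FPKM in Ph1 and 61.4 to 113 in Ph2, and 3 of the 5 that were tested rose (median change 1.71). That of 4 heart genes was 8.67 to 96.6 FPKM in Ph1 and 94.5 to 138 in Ph2, and all 3 that were tested rose (median change 2.15). At W3, W6 and W8, the sum of 5 smooth muscle genes went from 6002 to 2012 and 1554 FPKM, and that of the skeletal muscle genes from 103 to 20.7 and 15.7, while Cox7a1 was at 492.7, 695 and 594. The heart gene Myh6 was at no more than 0.111 FPKM at any timepoint, and listed at 0 at W6 and W8. The sum of 4 heart genes was 229, 232 and 262, of which Tnni3, an inhibitory troponin, gave 199, 219.5 and 258. Of 3 brown fat genes, Ucp1 was at no more than 0.328 FPKM and Dio2 at no more than 0.597, and Cidea rose from Ph1 to Ph2 by 2.46 (adjusted p = 7.78e-05) to at most 9.65 FPKM at W1. The sum of the 12 parietal cell genes was higher at each of these ages than at the one before, and the part of any of these in the course of Cox7a1 was not tested.

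The other muscle isoforms stayed low. Cox6a2 was listed at 0 at 8 timepoints and had 2.85 FPKM at W2, where the skeletal muscle genes Acta1 and Mylpf were at 34.9 and 24.3 FPKM. Cox8b was listed at 0 from E13.5 to E16.5 and had its highest value, 9.09 FPKM, also at W2. It rose from Ph1 to Ph2 by 1.61 (SE 0.45, adjusted p = 0.0069) on the log2(FPKM + 1) scale, but held no more than 0.763% of the sum of Cox8a and Cox8b at any timepoint. The rise did not pass the test when any of 7 ages was left out, with 1.34 (adjusted p = 0.0174) without W2. The general isoform Cox8a changed by 0.39 (adjusted p = 0.0256) and 0.52 (adjusted p = 0.0179).

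Both members that fell on the deposited scale were minor isoforms. Cox6b2, known as the testis isoform of subunit 6b, was at 46.7 to 67.6 FPKM in Ph1 (median 60.5), 17.48 to 45.9 in Ph2 (median 42.5) and 14.7, 4.49 and 2.86 in Ph3. Every phase lay below the one before. The first step of -0.64 (SE 0.29, adjusted p = 0.0717) did not pass the test, and in the second it fell by 2.47 (SE 0.36, adjusted p = 0.000173). Its share of the sum with Cox6b1 was 9.54% at E12.5, 1.56% at W2 and 0.223% at W8, while Cox6b1 changed by 0.39 (adjusted p = 0.0201) and rose by 0.72 (adjusted p = 0.00228). The rise of Cox6b1 did not pass the test without W3 (0.67, adjusted p = 0.0104) or W6 (0.64, adjusted p = 0.0188).

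Cox4i2, an isoform of subunit 4 known from lung and low oxygen, was at 5.13 FPKM at E12.5, 17.1 at E16.5, 6.17 to 8.39 in Ph2 and 5.42, 1.49 and 1.99 in Ph3. It changed by -0.53 (SE 0.26, adjusted p = 0.0886) and fell by 1.19 (SE 0.32, adjusted p = 0.00576), a fall that did not pass the test with median-ratio scaling (-0.75, adjusted p = 0.0627) or without W6 (-0.92, adjusted p = 0.0514). Nor did the fall pass without W8 (-1.05, adjusted p = 0.0319), E18.5, D3 or D5. Cox4i1, the main isoform, rose by 0.40 (adjusted p = 0.00857) and 0.56 (adjusted p = 0.00459). The first rise of Cox4i1 did not pass the test without E12.5 (0.35, adjusted p = 0.0219) or without any of several other ages. Its second rise did not pass it without D3, W3 (0.51, adjusted p = 0.0203) or W6 (0.51, adjusted p = 0.0291). Cox4i2 held no more than 1.71% of the sum of the pair.

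Ndufa4l2, a relative of Ndufa4 known to be induced by low oxygen, had the sharpest peak. It went from 3.06 FPKM at E12.5 through 29.1 at E14.5 and 98.7 at E16.5 to 186 at E17.5, and then to 79.4 at E18.5, 52.5 at D1, 24.3 at W2 and 11.8, 4.36 and 1.75 at W3, W6 and W8. All Ph3 values lay below all Ph2 values, and W8 was the lowest of all 15. Its Ph1 values spanned 3.06 to 186, and its changes of 0.13 (SE 0.79, adjusted p = 0.894) and -2.67 (SE 0.97, adjusted p = 0.0292) did not pass the test. Relative to the nuclear members the second change was -3.03 (adjusted p = 0.00584). Its share of the sum with Ndufa4 was 0.557% at E12.5, 17.3% at E17.5 and 0.204% at W8.

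The Atp5g family, whose promoters are given above, changed its make-up while its sum grew less. Atp5g1 was at 201 to 430.1 FPKM in Ph1 (median 244), 352 to 497 in Ph2 (median 423) and 669, 701 and 569 in Ph3. Only E17.5 reached into the range of Ph2, and Ph3 lay above all. Atp5g1 rose by 0.69 (SE 0.16, adjusted p = 0.00196) and changed by 0.60 (SE 0.19, adjusted p = 0.0164).

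Atp5g2 was at 699 to 803 FPKM in Ph1, 534 to 714 in Ph2 and 699, 535 and 490.1 in Ph3, so that neighbouring phases overlapped. Its changes were -0.24 (SE 0.10, adjusted p = 0.0434) and -0.16 (SE 0.12, adjusted p = 0.259), and with median-ratio scaling 0.05 and 0.44, the latter a rise (adjusted p = 0.00722). Atp5g3 was at 595 to 928, 767 to 1021 and 1352, 1299 and 1032 FPKM, changed by 0.29 (adjusted p = 0.0436) and rose by 0.51 (adjusted p = 0.00827). That rise did not pass the test without W3 (0.43, adjusted p = 0.039), W6 (0.46, adjusted p = 0.0437) or any of several earlier ages. The shares within the family do not depend on the scale. That of Atp5g2 was 47.8% at E12.5, 30.1% at W2 and 23.4% at W8, that of Atp5g1 13.2%, 22.2% and 27.2%, and that of Atp5g3 39.0%, 47.7% and 49.4%.

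**Figure D5:**
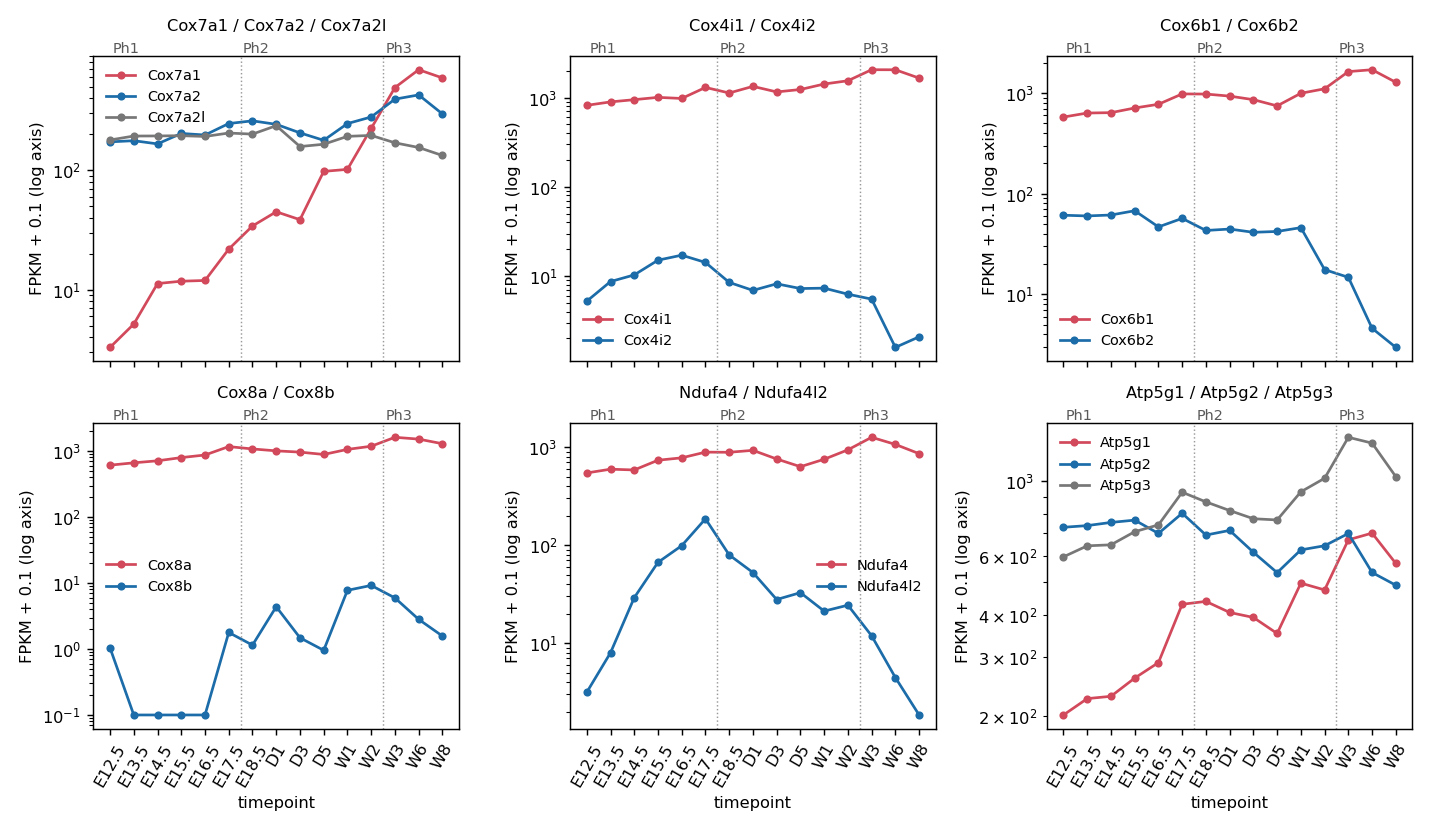
FPKM of the isoform families at the 15 timepoints, on log axes, with a line for each gene. Cox7a1 passes Cox7a2 at W3. Cox4i2 is highest at E16.5 and lowest at W6, and Cox6b2 is highest at E15.5 and lowest at W8. Ndufa4l2 peaks at E17.5 with 186 FPKM, and Atp5g1 passes Atp5g2 at W6.

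Other genes of the pathway showed which neighbours of the chain shared its course. Of 4 electron carrier and related genes outside the families above, none passed the test from Ph1 to Ph2 and 3 rose from Ph2 to Ph3: Cyc1 (cytochrome c1, by 0.55, adjusted p = 0.00752), Cycs (cytochrome c, by 0.88, adjusted p = 0.00125) and Ndufab1. With median-ratio scaling the counts were 2 and 3. Of 13 tricarboxylic acid cycle genes, 4 rose in the first step and 7 in the second, and none fell, beside 13.2% and 3.41% of all genes that rose. With median-ratio scaling the counts were 12 and 13, against 20.4% and 14.9% of all genes. Cs, citrate synthase, was at 90.9 to 117 FPKM in Ph1, 99.4 to 126 in Ph2 and 172, 142 and 154 in Ph3, and rose in the second step by 0.50 (adjusted p = 0.00196).

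The genes that express and build the complexes are given next, on a scale on which 35.1% of all genes fell in the first step and 37.4% in the second. Of 79 mitochondrial ribosome genes, which translate the mitochondrial messages, none rose and 29 fell from Ph1 to Ph2, and 2 rose and 8 fell from Ph2 to Ph3. With median-ratio scaling these counts were 2 and 5, and 49 and 0, so the direction of the second step depends on the scale. Of 14 genes of mitochondrial DNA transcription and upkeep, none rose, while 6 fell in the first step and 3 in the second, and with median-ratio scaling 0 rose and 1 fell, and 3 rose and 0 fell. Tfam, which packs mitochondrial DNA and starts its transcription, was at 10.6 to 16.6 FPKM in Ph1, 8.08 to 10.2 in Ph2 and 6.97, 6.69 and 7.28 in Ph3. It fell by 0.59 in the first step (adjusted p = 0.000386) and changed by -0.34 in the second (adjusted p = 0.0372). With median-ratio scaling its first change did not pass the test (-0.32, adjusted p = 0.012), and the second had the opposite sign (0.20, adjusted p = 0.181).

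Assembly factors were counted by complex. Of 18 for complex IV, 2 rose in the first step and 4 in the second, and none fell, beside 13.2% and 3.41% of all genes that rose. With median-ratio scaling 5 and 12 rose, against 20.4% and 14.9% of all genes. Cox17, the copper chaperone, was at 98.4 to 209 FPKM in Ph1, 225 to 326 in Ph2 and 473, 563 and 486 in Ph3, without overlap, and rose by 0.89 (adjusted p = 0.000477) and 0.98 (adjusted p = 0.00122). For complexes I (13 genes), II (2), III (5) and V (3), none rose, while 4, 1, 2 and 2 fell in the first step and 1, 2, 0 and 0 in the second. With median-ratio scaling, 8 factors of complex I and 2 of complex III rose in the second step, and none fell in that step for any complex. A difference between the complexes was not tested.

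Regulators of mitochondrial genes moved in both directions on the deposited scale, on which 37.4% of all genes fell in the second step. Of 11 coactivators and transcription factors, 4 rose and 5 fell from Ph1 to Ph2, and 1 rose and 4 fell from Ph2 to Ph3. With median-ratio scaling these counts were 4 and 4, and 4 and 0, so no gene of the list fell in the second step on that scale. Esrra, an estrogen-related receptor, was at 11.7 to 34.3 FPKM in Ph1, 33.9 to 44.1 in Ph2 and 61.7, 61.1 and 65.7 in Ph3, and rose in the first step by 0.93 (adjusted p = 0.00139). Nrf1 was at 16.4 to 24.8 FPKM in Ph1, 8.59 to 11.99 in Ph2 and 6.88, 4.56 and 5.10 in Ph3, with no overlap, and fell by 1.03 (adjusted p = 5.47e-05) and 0.71 (adjusted p = 0.0012). The second fall of Nrf1 did not pass the test with median-ratio scaling (-0.19, adjusted p = 0.182). Ppargc1a, a coactivator, rose in the first step by 0.71 (adjusted p = 0.00234) and was at no more than 3.49 FPKM.

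Glycolysis and the handling of ATP are given for comparison. Of all genes, 13.2% rose and 35.1% fell in the first step, and 3.41% rose and 37.4% fell in the second. Of 15 glycolysis genes, 2 rose and 9 fell from Ph1 to Ph2, and 2 rose and 1 fell from Ph2 to Ph3. With median-ratio scaling the counts were 3 and 2, and 10 and 0, so they depend on the scale. On that scale 20.4% of all genes rose and 18.4% fell in the first step, and 14.9% rose and 10.4% fell in the second. Ldha, the muscle form of lactate dehydrogenase, fell by 0.60 in the first step (adjusted p = 0.00455), and Ldhb, the heart form, rose by 1.49 in the second (adjusted p = 0.000239). Of 9 creatine kinases and nucleotide carriers, 3 rose and 2 fell in the first step and 3 rose in the second, and with median-ratio scaling 5 rose and none fell, and 6 rose. Ckmt1, a mitochondrial creatine kinase that is also in the parietal list, went from 5.05 FPKM at E12.5 to 593 at W3 and rose in the first step by 3.17 (adjusted p = 0.00187).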

How the data were processed

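Whole stomach RNA of C57BL/6 mice was sequenced at 15 ages with 1 transcriptome each. The authors deposited 1 table for each age with FPKM values and confidence bounds for each gene entry. According to the study's methods, mRNA was isolated with oligo beads, and FastQC, HISAT2 and StringTie with GRCm38.p2 and a GENCODE annotation were used, whereas the submitters' processing notes name Bowtie 0.12.2 and the columns of the files are those Cufflinks writes, keyed by identifiers of RefSeq type. The aligner and counter behind the FPKM values are therefore uncertain, and strand and read depth are not given in the sources used here. How the confidence bounds were computed is not given in the sources used here, and they cover a single library. For COX1 their half-width was 4.16% of the value at 3978 FPKM (E13.5) and 4.13% at 15789 FPKM (W6). They thus do not follow counting error alone. Relative depth was estimated from faint entries taken to hold 1 fragment, with a lower bound of 0 and a ratio of upper bound to value of 3 (tolerance 0.001).

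Where a symbol had several entries (4 for Ndufa7), their FPKM were added, which left 44788 symbols. A gene was kept if its FPKM reached 1 at any age, and the 16902 genes kept were fitted as log2(FPKM + 1) with limma 3.58.1 in R 4.3.3 over all 15 samples, without covariates, with an F test over the 3 phases, a contrast for each step between neighbouring phases, Benjamini-Hochberg adjustment over all genes and a threshold of 0.01. All fold changes are differences on this scale, which understates changes of low genes. "Rose" and "fell" are used of genes past the threshold. A few single genes were also compared by exact two-sided permutation tests. Summaries were made with Python 3.11.15, NumPy 2.4.6, pandas 2.3.3, SciPy 1.17.1 and matplotlib 3.10.9. The fit was tested on simulated data. Coordinates of mitochondrial genes are those of the files, counted from 1.

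The members and lists were chosen with earlier results of these data known. Genes were named by rule: the 13 mitochondrial genes, for each complex and step the nuclear member with the highest and the lowest change, the isoform families, the 4 complex II genes, 6 core subunits, and up to 4 genes of each list. Alternatives were other scalings, pseudocounts, FPKM limits, phase assignments and tests, and leaving out each age in turn. A scale relative to the nuclear members, a fit without W6 and W8, and a ratio of sums without ATP8 were added after seeing the data.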

Additional observations from a re-analysis of the deposited data

Results flagged for a closer look

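In 5 of 100 groups of a member and a phase, 1 timepoint stood apart from the others of its phase by Dixon's test, about as many as chance gives (1 in 20). Within Ph2, ATP6 was at 9701 FPKM at W2, Atp5l-ps1 at 0.129 FPKM at E18.5 with all other Ph2 values listed at 0, Cox6a2 at 2.85 FPKM at W2 and Cox6b2 at 17.48 FPKM at W2. Within Ph1, Sdhc was at 154 FPKM at E17.5. Of the 5 timepoints, 3 were W2.

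The mitochondrial ribosomal RNAs, which are no protein genes and enter no comparison above, were also listed. Rnr1 was at 224 to 379 FPKM before W3 and then at 847, 1585 and 739 at W3, W6 and W8. Rnr2 was at 271 to 484 FPKM before W3 and then at 664, 1204 and 687. On the log2 scale and relative to the mean of the 13 mitochondrial protein genes in the same sample, Rnr1 stood at -4.19 at W2, -2.75 at W3 and -2.80 at W6, and Rnr2 at -4.36, -3.10 and -3.20. The RNA was isolated with oligo beads, so ribosomal RNA levels depend on what passed that selection, and its part in these values was not tested.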

How the results depend on the processing

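No paired analysis was possible because each timepoint has 1 transcriptome, and the replicate numbers within a phase follow age and pair no samples. Nuclear members that rose from Ph1 to Ph2 (19) numbered 48 with median-ratio scaling, 40 with a fixed sum of nuclear genes, 33 with the phases of the proteome, 11 with groups by birth and weaning and 8 relative to the nuclear members. Those that fell (0) numbered 1 with quantile normalization and 5 on the relative scale. Nuclear members that rose from Ph2 to Ph3 (39) numbered 75 with median-ratio scaling, 68 with the fixed sum, 25 by birth and weaning, 3 on the relative scale and 0 without W6 and W8. Those that fell (2) numbered 1 with median-ratio scaling, quantile normalization, the fixed sum, a pseudocount of 5, no filter on low values or groups by birth and weaning, 7 on the relative scale and 0 without W6 and W8. Relative to the nuclear members, 26 nuclear members differed across the phases in place of 61. Mitochondrial members that differed across the phases (12) numbered 6 with quantile normalization, 5 on the relative scale and 7 without W6 and W8. Those that rose from Ph1 to Ph2 (4) numbered 7 with median-ratio scaling, 1 by birth and weaning, 0 on the relative scale and 7 without W6 and W8. Those that rose from Ph2 to Ph3 (10) numbered 2 with quantile normalization, 1 on the relative scale and 0 without W6 and W8. Leaving W6 and W8 out leaves Ph3 with W3 alone, assumed to vary like the other phases. The median of all genes changed by -0.22 and -0.43 in the 2 steps as deposited, by 0.01 and -0.02 with median-ratio scaling and by -0.13 and 0 with quantile normalization. Shares of all genes are given above for the deposited, median-ratio and relative scales only, so the other counts here and below have no such comparison. The cause of the other differences was not tested.

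The difference between mitochondrial and nuclear means changed from Ph2 to Ph3 by -0.022 from summed FPKM and by -0.29 without W6 and W8, in place of 0.40. With quantile normalization, COX2 changed by -0.21 from Ph1 to Ph2, and from Ph2 to Ph3 ATP6 changed by -0.31, COX1 by -0.12, COX2 by -0.63, COX3 by -0.42 and ND4L by -0.27. With median-ratio scaling, Atp5g2 changed by 0.44 from Ph2 to Ph3. Leaving out each timepoint in turn, nuclear members that differed across the phases numbered 47 to 65 and mitochondrial members 8 to 13. From Ph1 to Ph2, 14 to 28 nuclear members rose and 0 to 1 fell, and 2 to 7 mitochondrial members rose and 0 fell. From Ph2 to Ph3, 9 to 46 nuclear members rose and 1 to 2 fell, and 2 to 12 mitochondrial members rose and 0 fell. The difference between the genomes changed by 0.08 to 0.17 in the first step and by 0.23 to 0.75 in the second. Of 2791 further comparisons of single members with an alternative, 2444 kept their side of the threshold, 235 became weaker and 105 stronger. In 7 the sign reversed with at least 1 of the fits past the threshold, as given here. Among the 2444, the sign changed in 69 with neither fit past the threshold. Depth is not known in reads, so no interval or detection limit is given.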
